A study of Mus musculus with 2 samples.

Results

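The forkhead genes are a family of transcription factor genes named for the fork head mutant of the fruit fly and ordered into lettered subfamilies, Foxa to Foxs. Of 43437 genes listed, 41 have a symbol made of Fox, a subfamily letter and a number. This leaves out the opposite-strand RNAs named after such genes. These 41 genes in 19 subfamilies make up the family as counted here. Foxc2, Foxf1 and Foxl1, also forkhead genes, are not among the genes listed and enter none of the counts. The 41 genes were compared between 2 RNA-seq libraries, 1 of whole body and 1 of telencephalon (the front part of the embryonic brain). Both came from untreated E12.5 fetuses of wild-type ICR mice. ICR is an outbred stock. The labels give neither the number nor the sex of the fetuses in a library, nor whether the whole body included the head. Values are FPKM, fragments scaled to transcript length and to the fragments of the library, so levels can be set side by side between genes.

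Every forkhead protein binds DNA through the forkhead domain, a winged-helix fold whose recognition helix lies in the major groove. Family members are known both as early regulators that set up organs and brain regions and as effectors of signals, such as the FoxO proteins, which insulin and growth factors keep out of the nucleus. In the embryonic brain, members such as the FoxP genes are known for their part in the making and wiring of neurons.

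The coding bases of the recognition helix show what the members have in common and how far they differ as RNA. A stretch of 48 bases around this helix was found in the main coding transcript of 40 of the 41 genes, all but Foxr1, and it is printed here for 5 genes that the results turn on, on GRCm38, with the 24 bases of the helix core in capitals. In genes whose stretch is split by an intron the coordinates span that intron.
Foxo6 (chr4:120269144-120286847, minus strand): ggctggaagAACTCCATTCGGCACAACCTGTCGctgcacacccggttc
Foxo3 (chr10:42197863-42274824, minus strand): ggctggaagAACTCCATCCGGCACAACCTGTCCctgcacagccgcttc
Foxd1 (chr13:98355136-98355183, plus strand): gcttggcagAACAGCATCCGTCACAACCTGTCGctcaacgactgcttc
Foxc1 (chr13:31807568-31807615, plus strand): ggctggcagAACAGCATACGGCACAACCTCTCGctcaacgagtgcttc
Foxk2 (chr11:121290882-121296067, plus strand): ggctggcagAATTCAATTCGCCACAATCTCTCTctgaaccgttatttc
Foxo6 and Foxo3 differed at 4 of the 48 bases, and Foxc1 and Foxd1, of different subfamilies, at 6. Within a subfamily the median pair differed at 7 bases (36 pairs) and between subfamilies at 14 (744 pairs). The stretch lay in a single exon in 26 genes and was split by an intron in 14, Foxo1, Foxo3, Foxo4 and Foxo6 among them. Foxd3 and Foxd4 were identical here (0 differences). Over whole transcripts, 24 of the 41 genes had no 50-base stretch that occurs in a transcript of another gene, and in 37 at least 90% of the stretches were unique. Only Foxd3 and Foxd4 shared any (19) with another of the 41 genes, so reads could be told apart between nearly all members.

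A gene counted as measured at 1 FPKM or more in either library, and each difference is given as the log2 of telencephalon over whole body after adding 1 FPKM to both. Since each tissue has 1 library, replicate error is unknown and no test was run, so every difference describes these 2 libraries. The spacing of the lowest FPKM values of genes with a single isoform gave a depth of about 29400000 fragments for whole body and 22800000 for telencephalon. At a transcript length of 2000 bases a single fragment was worth 0.0203 and 0.0264 FPKM, and 3 fragments, the count that a listed 0 still allows, 0.0610 and 0.0793. Fragment numbers below are estimates from these steps, and intervals are exact 95% binomial intervals that cover counting error only. A bulk library cannot tell fewer cells of a type from less RNA per cell. As a check of the label, 5 of 6 telencephalic marker genes were at least 2-fold higher in the telencephalon library (summed FPKM 509 against 35.2), from Dlx2 at 212 against 5.40 FPKM down to Emx2 at 4.75 against 1.93, which lay within 2-fold.

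Forkhead genes that were lower in telencephalon outnumbered those that were higher. Among the 29 measured forkhead genes, 2 (6.90%) passed 2-fold upwards, 11 (37.9%) passed it downwards and 16 did not pass it. Over all 14987 measured genes the shares were 9.39% upwards and 21.2% downwards. Forkhead genes had a median log2 ratio of -0.75, against -0.16 for all measured genes, and the lowest forkhead ratio was -3.51 for Foxd1. All 29 measured genes reached 1 FPKM in whole body and 20 did so in telencephalon. No listed forkhead gene reached 1 FPKM in telencephalon alone. The 11 lower genes include Foxn3, whose value rests on very short isoforms as described further on, and without it 10 of 28 were lower.

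**Figure D1:**
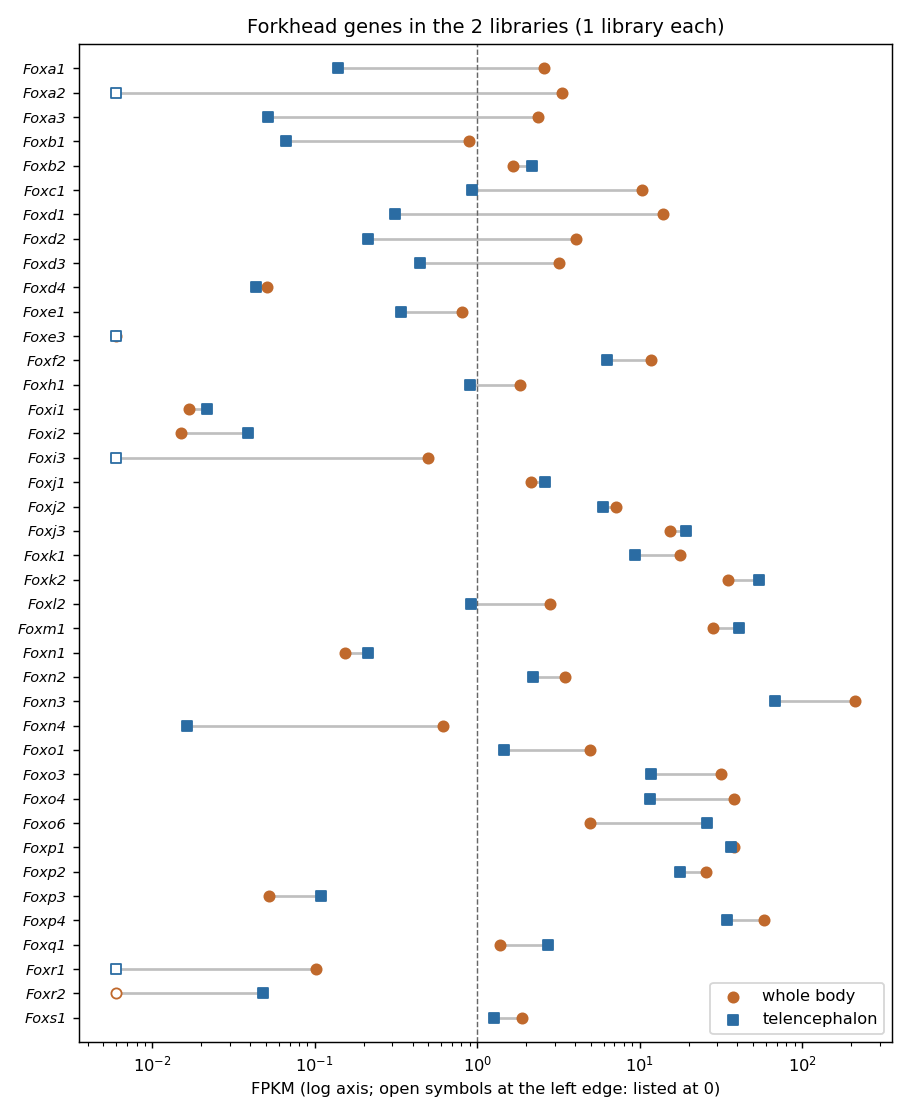
FPKM of 40 forkhead genes on a log axis, with a circle for the whole-body library and a square for the telencephalon library, open where the gene is listed at 0; the dashed line marks 1 FPKM. Foxo6 lies further right in telencephalon (25.96 against 4.96 FPKM), whereas the Foxa, Foxc and Foxd genes of 1 FPKM or more lie to the left in telencephalon.

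**Figure D2:**
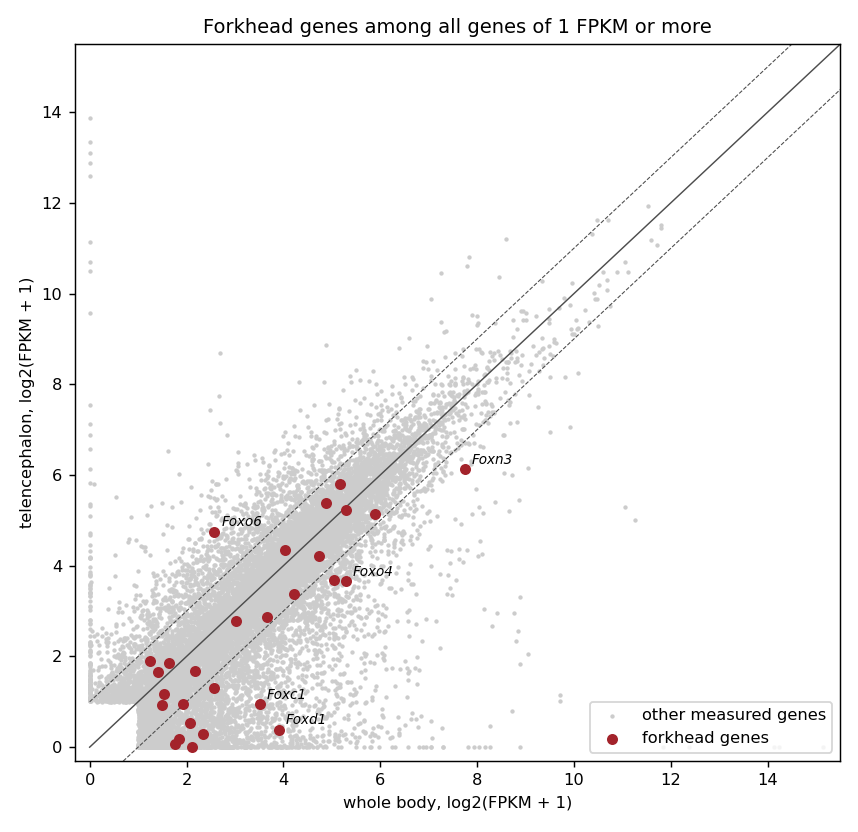
Log2(FPKM + 1) in telencephalon against whole body for measured genes (grey) and 28 measured forkhead genes (red); the solid line marks equality and the dashed lines 2-fold. Foxo6 lies above the upper dashed line and 11 forkhead genes lie below the lower.

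The FoxO genes split, with Foxo6 higher and the 3 others lower in telencephalon. Foxo6 (chromosome 4, 120267079 to 120287349, minus strand), the FoxO member known for expression in the developing and adult brain, stood at 4.96 FPKM in whole body against 25.96 FPKM in telencephalon. That is 5.23-fold higher, on about 334 and 1345 fragments (ratio 5.20, interval 4.61 to 5.88). Foxo1, a mediator of insulin signalling in liver and of vessel growth, stood at 4.96 and 1.46 FPKM, 3.40-fold lower. Foxo3, known for its part in stem cell quiescence, stood at 31.8 and 11.8 FPKM, 2.70-fold lower. Foxo4 (chromosome X) stood at 38.0 and 11.6 FPKM, 3.28-fold lower. Together these 3 genes had 74.8 FPKM in whole body against 24.8 in telencephalon, 33.2% of the whole-body level. Foxo6 and Foxo1 were level in whole body (a quotient of 0.999), whereas in telencephalon Foxo6 was 17.8 times Foxo1. Foxo6 made up 6.22% of the FoxO sum in whole body and 51.1% in telencephalon. Foxo1 and Foxo6 have a single annotated isoform in the table. Gm20402, on the strand opposite to Foxo1, shares 674 exon bases with it and stood at 12.3 and 3.76 FPKM, and the library kit does not mark strand.

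Genes that act on FoxO proteins and genes known as FoxO targets lay for the larger part within 2-fold, the targets with more genes lower than higher. Over all measured genes 69.5% lay within 2-fold. Of 20 measured regulators, the insulin receptor pathway and 14-3-3 genes among them, 3 were at least 2-fold higher, 1 was lower and 16 lay within 2-fold (median log2 ratio -0.03). Among the higher ones, named after their values were seen, were Ywhag, a 14-3-3 gene, at 117 and 240 FPKM, and Kat2b, an acetyltransferase gene, at 8.17 and 18.3 FPKM. Sgk3 and Sgk1, kinases that phosphorylate FoxO proteins at Akt sites, stood at 5.24 FPKM in whole body against 0.445 in telencephalon and at 11.0 against 5.43 FPKM, the latter within 2-fold. Of 19 measured target genes 1 was higher, 7 were lower and 11 lay within 2-fold, beside 9.39% higher and 21.2% lower over all measured genes. The target median was -0.83, against -0.16 for all measured genes. Igfbp1, a liver target that binds insulin-like growth factors, stood at 9.002 FPKM in whole body against 0.0369 FPKM in telencephalon. Klf4, a factor of epithelia and stem cells, stood at 11.7 and 0.864 FPKM. Pdk4, a kinase that shuts pyruvate out of the citrate cycle, was the higher target (0.592 and 6.86 FPKM). Igfbp1 is a gene of liver and Klf4 of surface epithelium; all 8 liver and all 6 surface epithelium markers were lower, and their part in these values was not tested.

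The FoxA genes were all lower in telencephalon, where they were at or near 0. These pioneer factors open chromatin in the endoderm, and Foxa2 also marks the floor plate of the neural tube. Foxa1 stood at 2.58 FPKM in whole body against 0.139 FPKM in telencephalon (about 217 and 9 fragments, 18.7-fold lower, interval 9.65 to 41.4). Foxa2 stood at 3.33 FPKM in whole body, on about 144 fragments, and was listed at 0 in telencephalon. Foxa3, a regulator of liver and gut genes, stood at 2.37 and 0.0516 FPKM, the latter from about 2 fragments (38.7-fold lower by fragments, interval 10.4 to 324). The summed FoxA level was 8.28 FPKM in whole body against 0.190 FPKM in telencephalon, 2.30% of the whole-body level. In a list of endoderm and liver genes, many of them known FoxA targets, 12 of the 16 measured passed 2-fold downwards, none upwards (median -2.92). Afp and Alb, the fetal and adult serum carrier proteins, stood at 843 against 1.03 and 833 against 1.21 FPKM. Prox1, a homeobox gene of liver and also of neural progenitors, was the member farthest in the other direction (5.22 and 9.29 FPKM). The liver marker list shares 6 of its 8 genes with that list and is no separate evidence; all 8 were lower, with a summed FPKM of 2551 in whole body against 10.04 in telencephalon, from Afp at -8.70 to Serpina1a at -3.34 in log2 ratio, and with Apoa2 and Serpina1a listed at 0 in telencephalon; their part in the FoxA difference was not tested.

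The measured FoxD genes and Foxc1 were lower in telencephalon, Foxd1 by the widest margin of the family on the FPKM + 1 scale. With 0.1 FPKM added in place of 1, Foxa2 (-5.10, listed at 0 in telencephalon) and Foxd1 (-5.10) were level. Foxd1 (chromosome 13, 98354242 to 98359305), known from kidney stroma and the ventral diencephalon and retina, stood at 13.9 FPKM in whole body against 0.310 FPKM in telencephalon. This is 44.9-fold lower, on about 1940 and 33 fragments (45.5-fold by fragments, interval 32.3 to 66.3). Foxd2, expressed in paraxial and kidney mesenchyme, stood at 4.08 and 0.214 FPKM, 19.1-fold lower. Foxd3, which maintains neural crest progenitors, stood at 3.18 and 0.442 FPKM, 7.20-fold lower. Foxd4, at 0.0505 and 0.0437 FPKM, was below 1 FPKM in both libraries with about 2 fragments each. Of 5 opposite-strand and neighbouring RNAs looked for, 3 are listed, all of them opposite-strand, and 1 was measured. Foxl2os (0.639 and 0.239 FPKM) and Foxo6os (0 in both) were below 1 FPKM, whereas Foxd2os stood at 1.05 FPKM in whole body and was listed at 0 in telencephalon. All 4 measured markers of kidney and gonad stroma were lower, from Osr1 at 31.9 against 0.0525 FPKM to Pax2 at 5.68 against 0.0843. Summed FPKM over the 5 listed markers of that tissue was 53.5 and 0.291. Of 6 neural crest and peripheral ganglion markers 4 were lower, with Prph lowest at 28.4 against 0.573 FPKM, and 1, Isl1, was higher at 11.6 against 47.5 (summed FPKM 74.8 and 52.7). No marker of either list was listed at 0, and their part in the FoxD differences was not tested.

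The neighbouring genes Foxq1, Foxf2 and Foxc1 on chromosome 13 had different ratios. Foxq1 (31556134 to 31560976), Foxf2 (31625816 to 31631403) and Foxc1 (31806633 to 31812476) lie on the plus strand within a short interval, 64839 bases between the first pair and 175229 between the second. Foxc1, a gene of head mesenchyme, meninges and heart, stood at 10.4 FPKM in whole body against 0.935 FPKM in telencephalon, 11.1-fold lower (interval 9.24 to 13.6 by fragments). Foxf2, known from gut and palate mesenchyme and from the pericytes of brain vessels, stood at 11.7 and 6.28 FPKM, 53.6% of the whole-body level. Foxq1, which brain endothelium expresses, stood at 1.39 and 2.73 FPKM, 1.97-fold higher by fragments (interval 1.63 to 2.38). A530084C06Rik, on the opposite strand, shares 3200 of the exon bases of Foxq1 (66.1%) and stood at 0.118 and 0.199 FPKM. Foxs1, a gene of pericytes and sensory neurons, stood at 1.89 and 1.26 FPKM on about 55 and 28 fragments, an interval of the ratio from 0.402 to 1.06.

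Marker lists of tissues that express this trio are given for comparison. All 8 connective tissue and skeleton markers were lower (summed FPKM 1730 and 16.5), with a median of 0.601% of the whole-body level, from Col1a2 at 470 against 2.57 FPKM to Twist1 at 34.4 against 1.51. The list for meninges and perivascular mesenchyme, which shares Col3a1 and Lum with the former, had 7 of 9 lower (715 and 50.8), with a median of 2.79%, from Col3a1 at 431 against 6.80 FPKM to Zic1 at 31.4 against 31.8. Of 8 endothelial markers 6 were lower (135 and 53.9), with a median of 32.1%, from Emcn at 9.83 against 1.19 FPKM to Cldn5, a tight-junction gene of brain vessels, at 27.2 against 24.4. None of these markers was listed at 0 in either library. Foxc1 at 8.997%, Foxf2 at 53.6% and Foxq1 at 197% of the whole-body level can be read beside them, and the part of these cells in the 3 ratios was not tested.

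**Figure D3:**
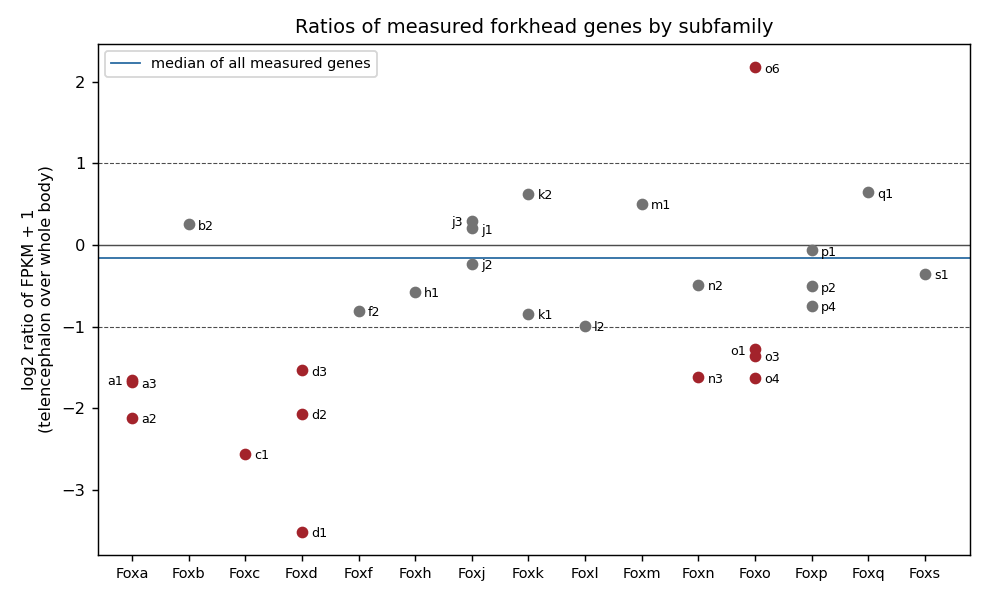
Log2 ratio of FPKM + 1 (telencephalon over whole body) of 28 measured forkhead genes by subfamily, in red at 2-fold or more; dashed lines mark 2-fold and the blue line the median of all measured genes, -0.16. The Foxa and Foxd genes lie together on the lower side, the FoxO genes on both sides, with Foxo6 at 2.18.

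Foxp1, Foxp2 and Foxp4 were abundant in both libraries and within 2-fold in the deposited gene values, although Foxp1 depends on the isoforms counted. They encode repressors that act as dimers, among them Foxp2, the gene tied to speech and to corticostriatal circuits. Foxp1 stood at 38.2 FPKM in whole body against 36.4 FPKM in telencephalon, Foxp2 at 25.5 and 17.7, and Foxp4 at 58.5 and 34.5. Foxp4 was the most abundant member in whole body after Foxn3. Foxp3, the regulatory T cell gene, stood at 0.0524 and 0.109 FPKM, about 5 and 8 fragments, and shares exon bases with Ccdc22 on the opposite strand (15.0 and 20.4 FPKM). The Foxp1 value in telencephalon depends on short isoforms. A processed transcript of 348 bases carried 15.0 of the 36.4 FPKM there (41.1%) and 0.615 FPKM in whole body, and isoforms under 500 bases together carried 50.5% in telencephalon. Summed over isoforms of 500 bases or more, Foxp1 stood at 35.0 FPKM in whole body against 18.0 FPKM in telencephalon, a log2 ratio of -0.92 in place of -0.07. By fragments on isoforms of 600 bases or more (about 2789 and 1024) Foxp1 was 2.11-fold lower (interval 1.96 to 2.27). On the sum over 500 bases Foxp2 moved from -0.50 to -0.32, since 12.2% of its whole-body FPKM lay in shorter isoforms, and Foxp4 from -0.75 to -0.77.

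Genes for corepressors and partners of FOXP and other forkhead proteins were counted in the same way. Of 25 measured genes, the Groucho (Tle) and NuRD genes among them, 1 was higher, 3 were lower and 21 lay within 2-fold (median 0.12), beside 69.5% within 2-fold over all measured genes. Nr2f1, a nuclear receptor of the caudal cortex, stood at 82.9 FPKM in whole body against 446 FPKM in telencephalon. Tle1, a Groucho corepressor, stood at 36.9 and 69.2 FPKM, just below 2-fold. Tle6, a divergent member of that family, was lower (5.80 and 0.845 FPKM).

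Foxn3 had the highest deposited value of the family in whole body, 213 FPKM against 68.6 in telencephalon, and that value was carried by very short isoforms. This gene encodes a checkpoint repressor with little tissue restriction. A processed transcript of 168 bases carried 193 FPKM in whole body (90.4% of the gene) and was listed at 0 in telencephalon. A retained-intron transcript of 387 bases carried 49.0 FPKM in telencephalon (71.5%) and effectively 0 in whole body. Both share exon bases with coding isoforms of Foxn3. In coding sequence of other isoforms lie 132 of the 168 bases and 299 of the 387. A further 36 bases of the shorter lie in untranslated sequence of such isoforms, and 88 bases of the longer lie in neither. The longest stretch of each in coding sequence is printed to show the overlap, with capitals for bases that both short isoforms contain. They lie on the minus strand at chr12:99219637-99291277 and chr12:99196686-99291301, introns included.
Foxn3 isoform of 168 bases, positions 1 to 68: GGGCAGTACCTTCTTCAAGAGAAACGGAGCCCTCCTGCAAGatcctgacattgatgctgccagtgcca
Foxn3 isoform of 387 bases, positions 89 to 387: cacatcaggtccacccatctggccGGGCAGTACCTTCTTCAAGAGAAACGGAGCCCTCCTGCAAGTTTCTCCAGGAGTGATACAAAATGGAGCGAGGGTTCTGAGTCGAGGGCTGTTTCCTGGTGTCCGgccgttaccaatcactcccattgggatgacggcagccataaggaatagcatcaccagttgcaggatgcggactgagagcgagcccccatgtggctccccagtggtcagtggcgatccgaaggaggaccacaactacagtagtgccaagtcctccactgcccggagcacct
Reads that lie within the 41 capitals printed for both match both short isoforms and coding isoforms as well. The stretch of the 387-base isoform holds 105 capitals in all. Those after the first 41 lie in the 168-base isoform past the positions printed for it, and reads within them also match both short isoforms. The division of such reads rests on the authors' isoform model. After these 41 bases the short isoforms run on differently, so a read that crosses that point cannot match both. The step fit subtracts about 326 and 337 bases from each transcript length in the 2 libraries, more than the 168 bases of the shorter one, so no fragment number is given for it. The 2882-base coding isoform stood at 6.93 FPKM in whole body against 9.71 FPKM in telencephalon, the 7705-base isoform at 6.43 and 4.16, and the 2611-base isoform at 0.319 and 2.89. All isoforms of 500 bases or more had together 20.4 FPKM in whole body against 19.6 in telencephalon, a log2 ratio of -0.06 in place of -1.62. Leaving out only isoforms under 300 bases removes the whole-body transcript but keeps the telencephalon transcript, and the ratio then changes sign to 1.70. Among isoforms of known length, no other measured forkhead gene described here had over 10% of its FPKM in those under 300 bases; Foxa3 had 15.9% of its whole-body FPKM in an isoform whose length is not known here. The direction of Foxn3 depended on which isoforms were summed. By fragments on isoforms of 600 bases or more (about 2014 and 1437) the depth-scaled ratio was 0.922 (interval 0.861 to 0.987).

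**Figure D4:**
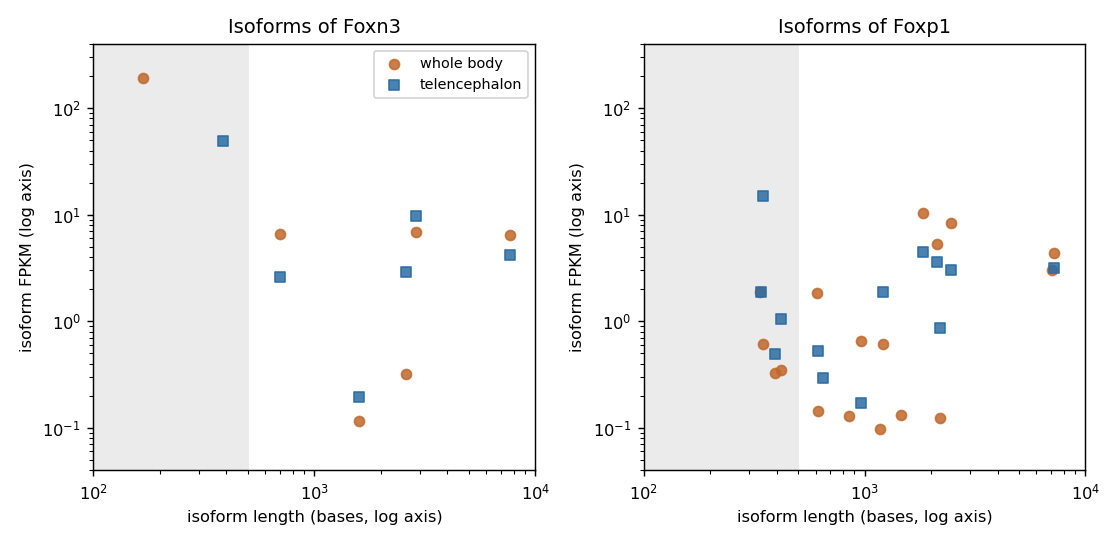
FPKM of each isoform of Foxn3 (left) and Foxp1 (right) of at least 0.05 FPKM against its length, both axes logarithmic, with circles for whole body and squares for telencephalon; grey marks lengths under 500 bases. The highest point of each library for Foxn3, 193 and 49.0 FPKM, lies in the grey zone, as does the 348-base isoform of Foxp1 in telencephalon.

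The remaining measured members were within 2-fold on the FPKM + 1 scale, and the paralogs of the FoxK pair lay on opposite sides of equality. Foxk1 and Foxk2, which act in metabolism and autophagy, stood at 17.6 against 9.38 FPKM and at 34.9 against 54.4 FPKM (whole body first). The quotient of Foxk2 to Foxk1 was 1.98 in whole body and 5.80 in telencephalon. By fragments Foxk1 was 1.88-fold lower (interval 1.77 to 1.9995) and Foxk2 1.63-fold higher (interval 1.56 to 1.70). Foxj2 and Foxj3, broadly expressed regulators, stood at 7.14 against 5.93 and 15.46 against 19.2 FPKM. In both genes the leading isoform differed between the libraries. For Foxj2 the 5283-base isoform held 65.9% and 46.9%, and the 4620-base isoform 34.1% and 53.1%. For Foxj3 the shares lay closer, 48.4% and 43.9% for the 4789-base isoform and 42.8% and 53.1% for the 4660-base isoform. Foxn2 stood at 3.49 and 2.19 FPKM, a log2 ratio of -0.49, which depends on the isoforms counted. Its coding isoform of 5085 bases held 96.2% of the whole-body value and 64.0% of the telencephalon value. A nonsense-mediated decay isoform held 23.6% in telencephalon and a retained-intron isoform 12.4%. On protein-coding isoforms alone the log2 ratio was -0.86. By fragments Foxn2 was 1.995-fold lower (about 477 and 185, interval 1.68 to 2.38). Foxh1, a partner of SMAD proteins in Nodal signalling, stood at 1.83 and 0.906 FPKM on about 56 and 21 fragments, 2.03-fold lower in FPKM but -0.57 on the FPKM + 1 scale. Foxl2, a gene of ovary and eyelid, stood at 2.82 and 0.922 FPKM, 3.05-fold lower in FPKM, yet at -0.99 it missed 2-fold on the FPKM + 1 scale. Foxb2, a gene of the developing thalamus, stood at 1.66 and 2.16 FPKM on about 57 fragments in each library.

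Foxm1, which switches on genes of the G2 and M phases, stood at 28.3 FPKM in whole body against 40.6 FPKM in telencephalon (1.46-fold higher by fragments, interval 1.39 to 1.54). Its leading isoform of 4652 bases held 82.5% and 78.5%, and a coding isoform of 2229 bases stood at 0.287 and 5.87 FPKM. All 16 genes known as FOXM1 targets lay within 2-fold, with a median of -0.25, beside 69.5% of all measured genes within 2-fold and their median of -0.16. Birc5, which encodes survivin, and Cdc25b, a phosphatase of mitotic entry, stood at 68.8 against 36.0 and 64.6 against 34.6 FPKM, and Cenpf at 8.72 against 10.5.

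Foxj1, the regulator of motile cilia, was at a low level in both libraries, 2.13 FPKM in whole body against 2.61 FPKM in telencephalon (ratio by fragments 1.22, interval 0.958 to 1.55). Only 6 of 18 motile cilium genes in the table reached 1 FPKM, of which 1 was higher and none lower (median 0.19). Rfx3, a partner factor of ciliogenesis, stood at 6.33 and 14.5 FPKM, Ccdc40 at 2.91 and 6.39, and Rfx2 at 10.7 and 5.59. Of 6 measured markers of choroid plexus, a site of Foxj1 expression, 4 were lower and none was higher. They ran from Ttr at 104 against 2.34 FPKM to Otx2 at 3.84 against 5.71. Summed FPKM over all 7 listed markers was 152 and 8.83, with none at 0. Ttr, which gives most of that sum, is also a liver gene and stands in the liver lists too. The part of these cells in the Foxj1 value was not tested.

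**Figure D5:**
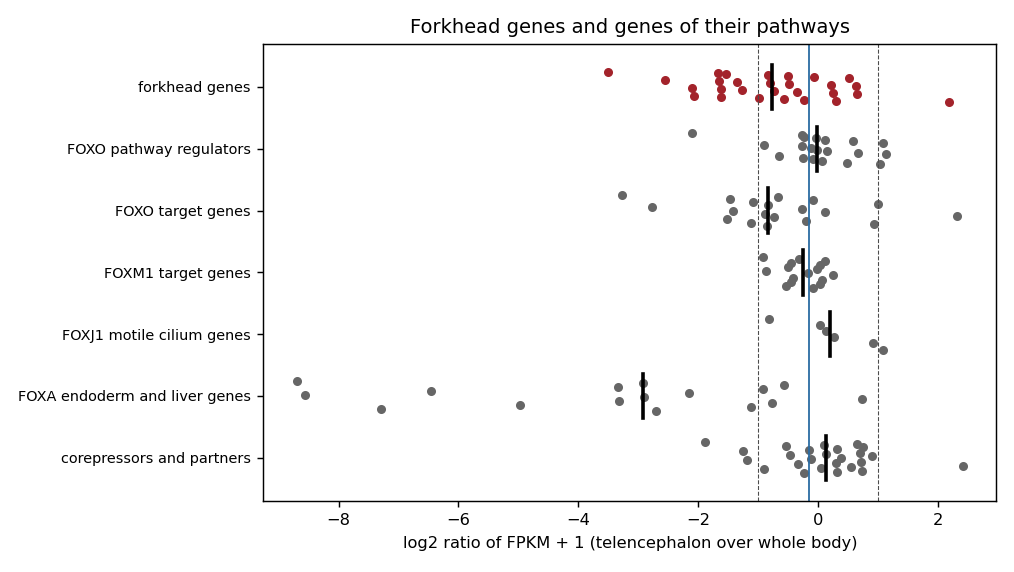
Log2 ratio of FPKM + 1 (telencephalon over whole body) of 28 measured forkhead genes (red) and of each measured gene in 6 lists of regulators, partners and targets (grey); black bars are medians of the points drawn, dashed lines 2-fold and the blue line the median of all measured genes. The endoderm and liver genes reach furthest to the left (median -2.92), and the FOXM1 targets stay between the dashed lines.

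The 12 members below 1 FPKM in both libraries are genes of restricted sites. Foxb1, a gene of hypothalamus and hindbrain, stood at 0.896 FPKM in whole body against 0.0663 FPKM in telencephalon (about 70 and 4 fragments). Foxn4, which acts in retina and in V2 interneurons of the spinal cord, stood at 0.619 and 0.0164 FPKM, 37.9-fold lower by fragments with an interval from 6.49 to 1528 because the latter was a single fragment. Foxi3, a gene of placodes and ectoderm, stood at 0.501 FPKM on about 13 fragments and was listed at 0 in telencephalon. Foxe1, the thyroid gene, stood at 0.810 and 0.338 FPKM (about 59 and 19 fragments). The other 8 stayed at 0.214 FPKM or less, namely Foxd4, Foxe3, Foxi1, Foxi2, Foxn1, Foxp3, Foxr1 and Foxr2, with at most 14 fragments each. Foxe3, a gene of the lens, was listed at 0 in both libraries, whereas all 6 lens and eye markers were measured in whole body (summed FPKM 71.3 and 1.30), from Cryaa at 33.7 against 0.103 FPKM to Mitf at 1.53 against 0.171, with Pitx3 listed at 0 in telencephalon. Surface epithelium, which includes sites of Foxi3 and Foxe1, had 6 of 6 markers lower (100.2 and 1.12), from Krt5 to Trp63, with Krt14 and Krt18 listed at 0 in telencephalon. Spinal cord floor plate and interneurons, the site of Foxa2 and Foxn4, had 3 of 5 lower (38.6 and 44.6), from Gata2 at 7.17 against 0.666 FPKM to Shh at 1.02 against 2.61, and Vsx1 was listed at 0 in telencephalon. Red cells had 3 of 6 lower (4567 and 2625), from Slc4a1 to Hba-x, and macrophages 5 of 5 (104.5 and 11.7), from Pf4 to Cx3cr1. The part of these cells in the forkhead values was not tested. Differences between the libraries in the 8 lowest forkhead genes were not detectable at this depth.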

How the data were processed

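The gene and isoform tables hold FPKM as deposited by the authors, with 1 column for each library. Libraries were made with an Illumina TruSeq RNA kit, per the labels' protocols; the kit is built on poly(A) selection and keeps no strand information. TopHat, Cufflinks and Cuffdiff were used with GRCm38, per the submitters' processing notes; versions and annotation are not given in the sources used here. Members and lists were chosen with earlier results of these data known. Each member is described except 1, which is not reported here, as is 1 gene of a pathway list; both stay in counts and medians, and the member is left out of figures. From each pathway list the 2 measured genes farthest in the direction of its median and the 1 farthest the other way are named, with the lowest and highest ratio of each marker list; isoforms and overlapping genes were picked with their values known. Isoform lengths, biotypes and coordinates come from GENCODE M21 (GRCm38); isoforms missing there entered no length sum. The step fit used single-isoform genes of 1000 to 6000 bases, in place of the planned minimum of 2000; 93.7% of 1807 and 93.4% of 1998 low values came out whole within 0.1 fragments. These values include those that set the fit. Fragments per member were summed over isoforms of 600 bases or more. Alternatives changed the pseudocount, the filter, the scaling (common upper quartile, TPM) and the isoforms summed. Scripts ran in Python 3.11.15 with pandas 2.3.3, NumPy 2.4.6 and SciPy 1.17.1, and the step fit was tested on simulated data.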

Additional observations from a re-analysis of the deposited data

How the results depend on the processing

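No replicate exists in either group, so these alternatives show the effect of processing only. No paired analysis was possible because each group has 1 library. At the settings used, 2 forkhead genes passed 2-fold upwards and 11 downwards, at a median of -0.75. The median was -0.89 with a pseudocount of 0.1 FPKM, -0.50 with no filter, -0.62 with a filter of 5 FPKM, -0.66 in TPM and -0.57 without isoforms under 300 bases. It was -0.66 without Foxn3, an alternative chosen after seeing the data, as were isoforms of 500 bases or more and protein-coding isoforms. With the filter of 5 FPKM, 16 forkhead genes were left and 5 were lower. The lower genes that it took out, Foxa1, Foxa2, Foxa3, Foxd2, Foxd3 and Foxo1, were below 5 FPKM in both libraries. Over all genes that filter gave 2065 lower in place of 3170. The number of all genes left was not recorded, so no share can be set beside the 5 of 16. Rescaling to TPM moved the median of all genes from -0.16 to -0.02 and their higher count from 1408 to 2126. Of the 13 genes past 2-fold, only Foxn3 changed sign (1.70 without isoforms under 300 bases) or came within 2-fold (-0.06 both with isoforms of 500 bases or more and with protein-coding isoforms). Among genes within 2-fold only Foxp1 changed sign (in TPM), and only Foxl2 passed 2-fold (pseudocounts of 0.1 and 0.5, TPM). Below about 3 fragments depth limits every ratio.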
